A study of Homo sapiens with 36 samples.

Results

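Hypoxia and glycolysis genes were examined as 1 set of 37 genes, in BxPC-3 cells given 5 compounds or DMSO for 2 or 4 h. The members were taken by gene name: oxygen sensors, hypoxia-induced secreted and stress proteins, sugar and lactate transporters, the enzymes that turn glucose into lactate, and 3 kinases that steer that flow. All 37 were found among the 29744 genes of the estimated count table (ERO1A stands there under its older symbol ERO1L), and 35 passed the filter on low counts, as did 14988 genes in all. BxPC-3 is an established human line from a pancreatic adenocarcinoma, whose genotype the labels give as WT. The cells grew in 6-well plates in RPMI medium with fetal bovine serum, and polyadenylated RNA was sequenced. The compounds were TRAP1, TRAP-1-NegP, JQ1, TRAP-1-NegB and MS78, each at 3 µM, and DMSO was the vehicle. Each compound and DMSO had 3 libraries at 2 h and 3 at 4 h, which makes 12 groups and 36 libraries. TRAP1 is here the name of a compound, also written TRAP-1 in the labels, and not of the gene with that symbol. JQ1 is an inhibitor of BET bromodomain proteins, which read acetylated histones at active genes. The sources used here do not state what TRAP-1-NegP and TRAP-1-NegB lack relative to TRAP1.

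Cells sense oxygen through HIF, a transcription factor whose alpha subunits (HIF1A is one) are hydroxylated by the EGLN enzymes when oxygen is present and are then destroyed. When the subunits last, HIF binds short DNA motifs near its target genes, which serve blood vessel growth, glucose uptake, glycolysis, lactate export and mitochondrial turnover. Glycolysis genes also answer to other transcription factors and to growth signals, and pancreatic cancer cells are known for high glucose use. HIF itself is set mainly by protein stability, so the RNA level of HIF1A is not a measure of HIF activity.

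Library totals ran between 15288688 and 26608325 estimated counts. The labels do not say whether the 3 libraries of a group came from separate cultures, so p-values measure only the spread between these libraries, which may be technical. The library labelled TRAP1 4 h replicate 1 stood apart from replicates 2 and 3 on the second principal component of expression, at −60.7 against −16.1 and −0.28. That component held 5.25% of the variance. In replicate 1, 1287 of the tested genes had no count, against 929 and 503 in replicates 2 and 3. The library labelled MS78 2 h replicate 1 also stood apart, in a chi-square comparison of the counts of replicate pairs: the statistic divided by its degrees of freedom was 27.6 and 44.5 for the pairs with it, and 7.07 for the pair without it. All 8 markers of epithelial cells were detected in every group, and they summed to between 14443 and 15329.5 CPM (counts scaled to library size, with TMM factors) at 4 h with TRAP1, against 9811 to 11052 CPM with DMSO; with TRAP-1-NegP they summed to between 11743.5 and 11994.5 CPM, above DMSO, and with JQ1 to between 9763 and 10509 CPM, which overlapped it. The 8 mesenchymal markers, of which 5 passed the filter, summed to between 35.9 and 53.8 CPM with TRAP1, 31.0 and 32.3 CPM with TRAP-1-NegP, and 34.5 and 36.95 CPM with JQ1, against 27.1 and 31.4 CPM with DMSO. The 8 haematopoietic and endothelial markers, of which 5 passed, summed to between 35.0 and 44.6 CPM with TRAP1, 35.97 and 40.7 CPM with TRAP-1-NegP, and 33.4 and 41.2 CPM with JQ1, against 33.6 and 37.4 CPM with DMSO, and PTPRC did not exceed 0.142 CPM in any library. No marker was at 0 in all 36 libraries, and the part of these markers in the results was not tested. In bulk RNA, fewer cells of a type and less RNA per cell cannot be told apart.

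The members covered a wide range of levels. By the deposited TPM values, which correct for gene length, GAPDH was the most abundant member in DMSO cells at 4 h, at 10890.4 ± 152 TPM (SD, n = 3). It was followed by PKM at 4042 ± 53.6 TPM and ENO1 at 3915 ± 36.5 TPM, means that lay further apart than either SD. ALDOA averaged 3194 ± 30.4 TPM and TPI1 2076 ± 68.3 TPM. At the other end, ANGPTL4 averaged 4.25 ± 0.825 TPM, and CA12 and ENO2 (3.67 ± 0.406 and 3.54 ± 0.658 TPM) did not differ beyond their spread, nor did ENO2 and PDK1 (3.45 ± 0.727 TPM). PFKFB4 was the least abundant member with usable counts, at 2.07 ± 0.226 TPM. BNIP3, a relative of BNIP3L, and SLC2A3, the glucose importer GLUT3, did not pass the filter, and CA9, a carbonic anhydrase often used as a marker of hypoxia, passed with at most 15 counts in a library. At 4 h CA9 was at 0.729, 0 and 0.113 CPM with TRAP1 against 0.247, 0.268 and 0 CPM with DMSO. It had no count in any TRAP-1-NegB library at 4 h, and no fold change is given for it. GAPDH, ENO1, PGK1, PKM, LDHA, TPI1 and PGAM1 have processed pseudogenes, so small differences in these genes carry an uncertainty from reads shared between copies. On GRCh38.p14 the members that separated the compounds most are the protein-coding genes PFKFB4 (chr3:48517684-48563136), EGLN3 (chr14:33924227-33951074), SLC2A1 (chr1:42925353-42958868) and HK2 (chr2:74834127-74893359). Those that rose with TRAP1, TRAP-1-NegP and JQ1 include ANGPTL4 (chr19:8364155-8374370), ADM (chr11:10305073-10307397), ALDOC (chr17:28573120-28576895) and PFKFB3 (chr10:6144921-6326637).

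TRAP1, TRAP-1-NegP and JQ1 raised a large share of the set, and the same compounds moved many genes of other kinds. At 4 h, 26 of the 35 tested members were higher and 1 was lower with TRAP1 than with DMSO, by edgeR's quasi-likelihood test at a Benjamini-Hochberg adjusted p under 0.05. Among all tested genes, 22.2% were higher and 24.5% lower in that comparison, 46.7% in all. With TRAP-1-NegP, 24 members were higher and 1 was lower (18.6% and 18.9% of all genes, 37.4% in all), and with JQ1, 22 were higher and 2 lower (24.3% and 24.6% of all genes, 48.9% in all). The members' median log2 fold change was 0.49 with TRAP1, 0.32 with TRAP-1-NegP and 0.33 with JQ1, against −0.02, −0.01 and −0.01 for all tested genes. These 3 comparisons share the DMSO libraries. When expression was scaled to library totals alone, the median of all genes moved to −0.29 with TRAP1, −0.19 with TRAP-1-NegP and −0.14 with JQ1, and 20, 15 and 15 members were higher and 2, 1 and 5 lower. The shares of all genes above belong to the TMM fit and cannot be set beside these counts. Without TRAP1 replicate 1, 26 members were higher and 1 lower with TRAP1 at 4 h, 25 of these 27 being among the 27 called with it.

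At 2 h the same 3 compounds already separated from DMSO. With TRAP1, 19 members were higher and 1 was lower (15.7% and 14.3% of all genes, 30.1% in all). With TRAP-1-NegP, 18 were higher and 4 lower (16.4% and 13.9% of all genes, 30.3% in all), and with JQ1, 20 were higher and none was lower (14.8% and 13.9% of all genes, 28.8% in all). The lower member with TRAP1 was HK2 (−0.21; adjusted p = 0.042), and those with TRAP-1-NegP were PDK1 (−0.59; 0.015), EGLN1 (−0.32; 0.039), HIF1A (−0.25; 0.012) and SLC2A1 (−0.14; 0.032). With length-scaled counts HK2 (−0.18) and PDK1 (−0.43) were not called. With scaling to library totals, the higher calls of HK1 and PFKP with TRAP1 and of ERO1L with JQ1 were lost. So were those of HK1, NDRG1, P4HA1, P4HA2, PFKFB3 and PFKL with TRAP-1-NegP. The members' medians were 0.34, 0.30 and 0.30 on the log2 scale, against 0.01, 0.01 and 0.02 for all genes.

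**Figure D1:**
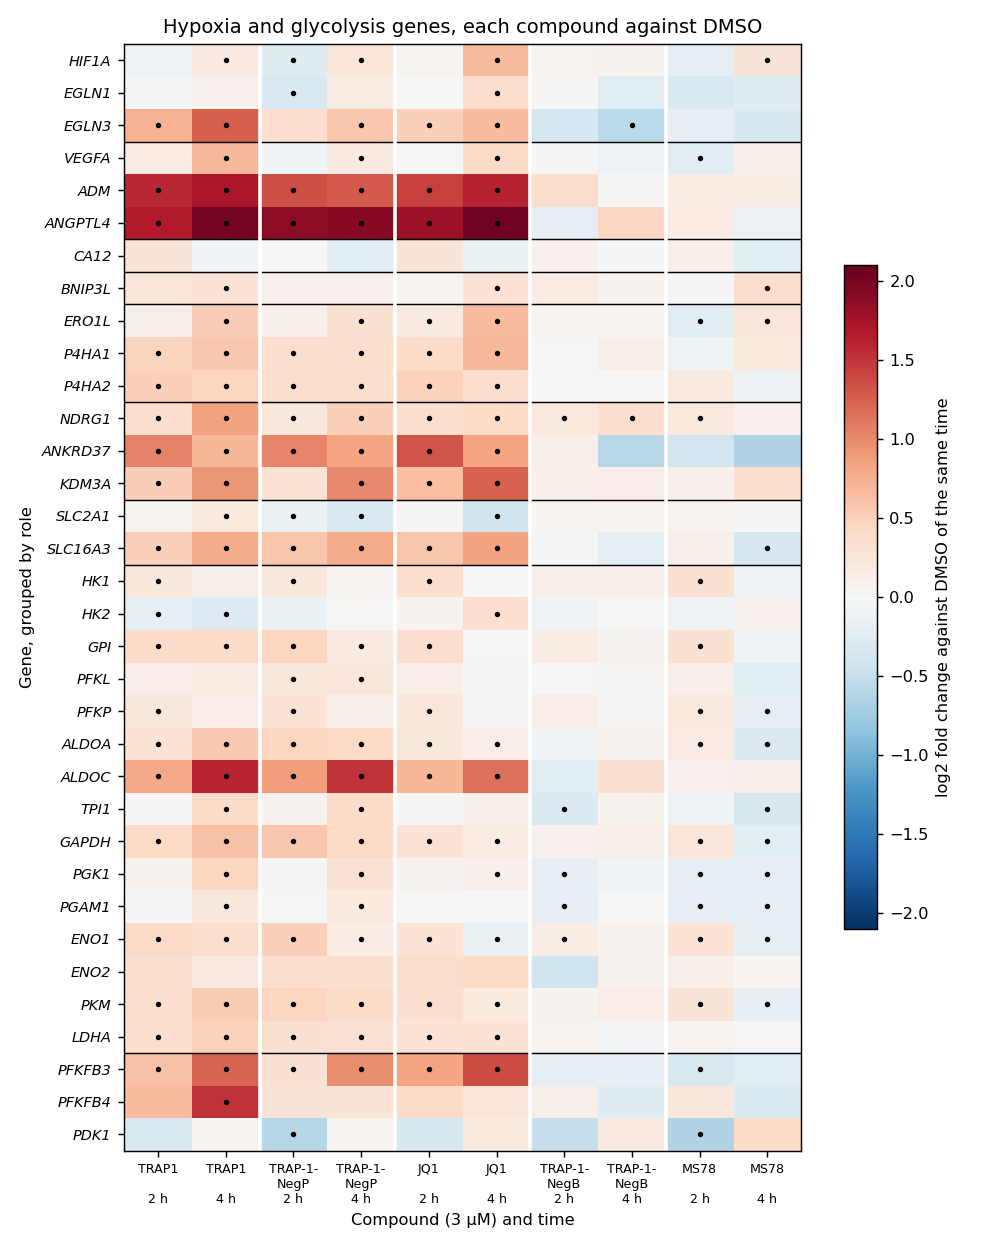
Log2 fold change of 34 members (rows, grouped by role; CA9, BNIP3 and SLC2A3 are left out) for each compound and time against DMSO of the same time (columns); red is higher and blue lower than DMSO, and a dot marks an adjusted p under 0.05. The columns of TRAP1, TRAP-1-NegP and JQ1 are mostly red, with ANGPTL4 at 2.01, 1.92 and 2.05 at 4 h, while those of TRAP-1-NegB and MS78 are pale.

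Of the 3 secreted proteins, ANGPTL4 and ADM differed most from DMSO. ANGPTL4, a secreted inhibitor of lipoprotein lipase, had 17.3, 23.3 and 22.6 CPM at 4 h with TRAP1, 20.8, 18.5 and 19.7 CPM with TRAP-1-NegP, and 21.4, 19.6 and 23.8 CPM with JQ1, against 4.1, 5.3 and 6.25 CPM with DMSO. All 9 of these compound libraries lay above all DMSO libraries. Its log2 fold changes at 4 h were 2.01 ± 0.21 (SE; adjusted p = 3.6e-12), 1.92 ± 0.21 (3.2e-11) and 2.05 ± 0.21 (1.8e-12). At 2 h they were 1.66, 1.88 and 1.81, so most of the difference from DMSO was in place by then. ADM, the vasodilator peptide adrenomedullin, had 42.7, 48.2 and 48.4 CPM at 4 h with TRAP1, against 11.5, 16.2 and 14.6 CPM with DMSO, a log2 fold change of 1.72 ± 0.14 (adjusted p = 4.9e-16). With TRAP-1-NegP it had 28.3, 36.9 and 38.4 CPM and with JQ1 44, 39.4 and 45.8 CPM, all above DMSO, at log2 fold changes of 1.29 ± 0.14 and 1.61 ± 0.14. At 2 h ADM was already higher with each of the 3, by 1.59, 1.35 and 1.44.

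VEGFA, the main growth factor for blood vessels, separated the compounds. It had 133, 133 and 133 CPM at 4 h with TRAP1, 87, 98.7 and 96.9 CPM with TRAP-1-NegP, and 102, 114 and 112 CPM with JQ1, against 88.3, 78.4 and 82.2 CPM with DMSO. The TRAP1 and JQ1 libraries lay above every DMSO library, whereas the lowest TRAP-1-NegP library lay below the highest DMSO library. The log2 fold changes were 0.68 ± 0.07 (adjusted p = 2.4e-11), 0.18 (0.045) and 0.40 (8.7e-06). The call for TRAP-1-NegP was lost in 4 of the 6 fits that left out 1 library of the pair, with length-scaled counts, with no count filter and with scaling to library totals (0.009).

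The oxygen sensors responded unevenly. EGLN3, the hydroxylase that is itself a strong hypoxia target, had 46.9, 35.2 and 41.8 CPM at 4 h with TRAP1, 25.6, 25.6 and 25.2 CPM with TRAP-1-NegP, and 29.4, 20.9 and 30.8 CPM with JQ1, against 19.6, 17.2 and 15.1 CPM with DMSO. Every library of the 3 compounds lay above every DMSO library, and the TRAP1 libraries lay above all others. The log2 fold changes were 1.26 ± 0.14 (adjusted p = 1.4e-10), 0.56 ± 0.15 (0.0016) and 0.64 ± 0.15 (0.00017). EGLN1, the main hydroxylase of HIF in most tissues, had 32.4, 26.1 and 28.7 CPM with TRAP1, 28.2, 30.2 and 32.4 CPM with TRAP-1-NegP, and 32.9, 36.2 and 36 CPM with JQ1, against 30.5, 25.4 and 26 CPM with DMSO. It was called higher with JQ1, whose libraries lay above DMSO, by 0.36 (adjusted p = 0.0094, lost in 1 of 6 fits that left out a library and with scaling to library totals), and was not called with TRAP1 (0.09; 0.57) or TRAP-1-NegP (0.15; 0.36). HIF1A RNA had 203, 203 and 196 CPM at 4 h with TRAP1, 198, 217 and 214 CPM with TRAP-1-NegP, and 270, 287 and 279 CPM with JQ1, against 195, 164 and 169 CPM with DMSO. The JQ1 libraries stood clear of all others, at a log2 fold change of 0.66 (adjusted p = 8.5e-10). The calls for TRAP-1-NegP (0.25; 0.0085) and TRAP1 (0.19; 0.044) were smaller and were lost in 2 and 5 of 6 fits that left out a library, and with scaling to library totals the TRAP1 value turned to −0.08. That scaling also ended the TRAP-1-NegP call (0.077; adjusted p = 0.57), and length-scaled counts ended the TRAP1 call (0.178; 0.06).

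Among the other hypoxia targets, KDM3A, a histone demethylase, had 33.5, 42.5 and 41.6 CPM at 4 h with TRAP1, 40.8, 42.9 and 40.7 CPM with TRAP-1-NegP, and 47.4, 49.5 and 49.1 CPM with JQ1, against 25.8, 16.2 and 20 CPM with DMSO. No library of the 3 compounds overlapped DMSO, and the log2 fold changes were 0.92 ± 0.13 (adjusted p = 7.2e-08), 1.00 (1.6e-08) and 1.23 (2.5e-11). NDRG1, a stress-responsive protein, had 241, 245 and 242 CPM with TRAP1, 178, 193 and 199 CPM with TRAP-1-NegP, and 172, 173 and 183 CPM with JQ1, against 125, 137 and 142 CPM with DMSO. All 3 groups lay above DMSO, at log2 fold changes of 0.85 ± 0.07, 0.50 and 0.39. ANKRD37, a small ankyrin-repeat protein, was higher with all 3 at both times: by 1.03, 1.03 and 1.33 at 2 h and by 0.70, 0.83 and 0.83 at 4 h. Its TRAP1 call at 4 h (adjusted p = 0.022) was lost in 3 of 6 fits that left out a library and with scaling to library totals (0.43; 0.17).

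The genes for protein folding and collagen modification rose by less. P4HA1 and P4HA2, subunits of the collagen prolyl hydroxylases, were higher at 4 h by 0.57 and 0.45 with TRAP1, 0.35 and 0.36 with TRAP-1-NegP, and 0.68 and 0.35 with JQ1. ERO1L, the oxidase that drives disulfide formation in the endoplasmic reticulum, was higher by 0.52, 0.32 and 0.67 with the same compounds. With scaling to library totals P4HA2 was not called with any of the 3 (0.18, 0.19 and 0.22; adjusted p = 0.16, 0.17 and 0.085), nor were P4HA1 (0.18; 0.15) and ERO1L (0.15; 0.15) with TRAP-1-NegP. The P4HA2 calls of TRAP-1-NegP and JQ1 were each lost in 1 of 6 fits that left out a library. BNIP3L, a receptor for the removal of mitochondria, had 51.7, 52.1 and 52.3 CPM with TRAP1, 41.6, 43.2 and 49.9 CPM with TRAP-1-NegP, and 55, 57.7 and 43.3 CPM with JQ1, against 49.5, 38.1 and 38.9 CPM with DMSO. The TRAP-1-NegP and JQ1 libraries overlapped DMSO. It was called higher with TRAP1 (0.30; adjusted p = 0.029) and JQ1 (0.30; 0.028), in calls lost in 5 and 4 of 6 fits that left out a library and with scaling to library totals. CA12, a carbonic anhydrase of the cell surface, was not called with any of the 3, at log2 fold changes between −0.24 and −0.06.

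The transporters for glucose and lactate moved in different ways. SLC16A3, the lactate exporter MCT4, had 318, 381 and 415 CPM at 4 h with TRAP1, 364, 377 and 371 CPM with TRAP-1-NegP, and 390, 364 and 415 CPM with JQ1, against 191, 228 and 229 CPM with DMSO. Each compound's libraries lay above all DMSO libraries, at log2 fold changes of 0.78 ± 0.09 (adjusted p = 9.8e-10), 0.78 (2e-09) and 0.85 (1.2e-10). SLC2A1, the glucose importer GLUT1, had 468, 457 and 475 CPM with TRAP1, 326, 321 and 326 CPM with TRAP-1-NegP, and 285, 294 and 323 CPM with JQ1, against 405, 398 and 410 CPM with DMSO. All TRAP1 libraries lay above DMSO and all TRAP-1-NegP and JQ1 libraries below it. The log2 fold changes were 0.21 ± 0.05 (adjusted p = 0.00084), −0.32 (1.8e-06) and −0.43 (8.9e-10). With scaling to library totals the TRAP1 value turned to −0.06, while TRAP-1-NegP stood at −0.49 and JQ1 at −0.56.

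**Figure D2:**
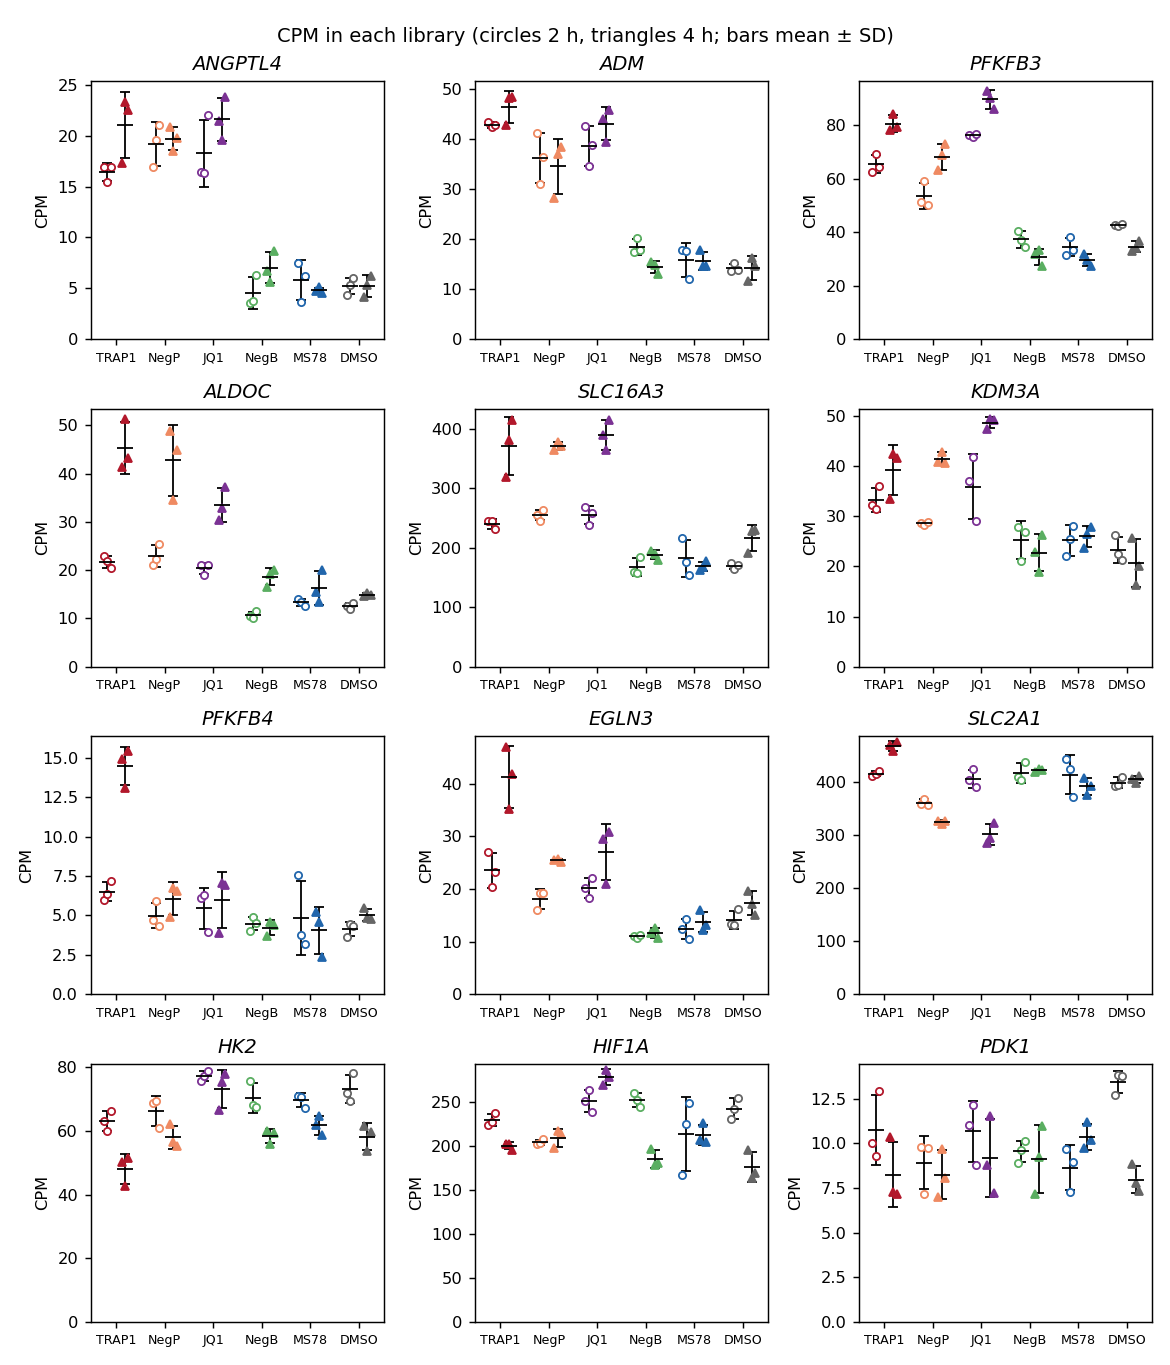
CPM of 12 members in each library (y axes start at 0; circles 2 h, triangles 4 h; horizontal bars are the mean and vertical bars the SD of 3 libraries), for each compound and DMSO (x axes; NegP and NegB stand for TRAP-1-NegP and TRAP-1-NegB). PFKFB4 at 4 h is between 13.1 and 15.4 CPM with TRAP1 and at most 7.05 CPM in the other 4 h groups, while SLC2A1 at 4 h is higher than DMSO with TRAP1 and lower with TRAP-1-NegP and JQ1.

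Of the 15 glycolytic enzymes, from hexokinase to lactate dehydrogenase, 10 were higher and 1 lower at 4 h with TRAP1, 11 were higher and none lower with TRAP-1-NegP, and 7 were higher and 1 lower with JQ1. Their median log2 fold changes were 0.39, 0.30 and 0.11. Among all tested genes, 22.2% were higher and 24.5% lower with TRAP1, 18.6% and 18.9% with TRAP-1-NegP, and 24.3% and 24.6% with JQ1. GAPDH, which oxidises glyceraldehyde 3-phosphate, had 13950, 13919 and 14271 CPM with TRAP1, 12062, 12155 and 12224 CPM with TRAP-1-NegP, and 10076, 10225 and 10429 CPM with JQ1, against 8885, 9483 and 9053 CPM with DMSO. The 4 groups did not overlap and stood in that order, at log2 fold changes of 0.62, 0.41 and 0.16. ENO1, the main enolase, had 6754, 6672 and 6923 CPM with TRAP1, 5847, 5848 and 5892 CPM with TRAP-1-NegP, and 4787, 4751 and 4823 CPM with JQ1, against 5055, 5418 and 5266 CPM with DMSO. It was higher with TRAP1 (0.37) and TRAP-1-NegP (0.16) and lower with JQ1 (−0.13; adjusted p = 0.021, lost in 2 of 6 fits that left out a library), and with scaling to library totals the TRAP-1-NegP value turned to −0.01. LDHA, which makes lactate from pyruvate, had 1597, 1572 and 1536 CPM with TRAP1, 1351, 1356 and 1412 CPM with TRAP-1-NegP, and 1376, 1399 and 1339 CPM with JQ1, against 1140, 1142 and 1074 CPM with DMSO. It was higher with all 3, without overlap, by 0.49 (adjusted p = 1.2e-14), 0.30 and 0.29. ALDOA and PKM, the pyruvate kinase, were also higher with all 3 (0.55, 0.41 and 0.13 for ALDOA; 0.53, 0.39 and 0.21 for PKM), as was PGK1 (0.46, 0.31 and 0.11). The JQ1 calls of ALDOA and PGK1 were lost in 3 and 2 of 6 fits that left out a library. With scaling to library totals no JQ1 call was kept for GAPDH (0.04), ALDOA (0.005), PKM (0.08) or PGK1 (−0.02). TPI1, GPI and PGAM1 were called with TRAP1 (0.39, 0.39 and 0.24) and TRAP-1-NegP (0.39, 0.19 and 0.20) but not with JQ1 (0.10, −0.00 and −0.02), and under scaling to library totals PGAM1 was at −0.03 with TRAP1, and GPI and PGAM1 were at 0.01 and 0.02 with TRAP-1-NegP, none of them called. PFKL was called with TRAP-1-NegP (0.26, lost in 2 of 6 fits that left out a library and with scaling to library totals) and not with TRAP1 (0.15) or JQ1 (−0.03). HK1, PFKP and ENO2 were not called with any of the 3 at 4 h.

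ALDOC, an aldolase best known from brain, rose most among the enzymes. It had 41.3, 51.4 and 43.3 CPM at 4 h with TRAP1, 48.8, 34.5 and 45 CPM with TRAP-1-NegP, and 30.3, 32.8 and 37.3 CPM with JQ1, against 14.7, 15.3 and 14.9 CPM with DMSO. No compound library came near the DMSO range, and the log2 fold changes were 1.60 ± 0.13 (adjusted p = 3.1e-15), 1.51 ± 0.13 (5.2e-14) and 1.16 ± 0.13 (9.4e-11). HK2, the inducible hexokinase that traps glucose in the cell, was the 1 enzyme lower with TRAP1: it had 50.2, 42.6 and 51.5 CPM with TRAP1, 62.1, 56.5 and 55.4 CPM with TRAP-1-NegP, and 66.6, 75.5 and 77.9 CPM with JQ1, against 61.6, 53.7 and 59.5 CPM with DMSO. The TRAP1 libraries lay below and the JQ1 libraries above all DMSO libraries. The log2 fold change was −0.28 ± 0.08 with TRAP1 (adjusted p = 0.0047) and 0.33 with JQ1 (0.00063). The TRAP1 call was lost in 1 of 6 fits that left out a library and with counts scaled for transcript length (−0.16; 0.11).

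As a share of all estimated counts, the 15 enzymes together took 3.65 to 3.71% at 4 h with TRAP1, 3.49 to 3.54% with TRAP-1-NegP and 3.07 to 3.12% with JQ1, against 3.09 to 3.18% with DMSO. The TRAP1 and TRAP-1-NegP ranges lay above DMSO, and the JQ1 range overlapped it. At 2 h the shares were 2.91 to 2.96%, 3.09 to 3.10% and 2.86 to 2.89%, against 2.52 to 2.55% with DMSO, so at that time all 3 lay above it.

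**Figure D3:**
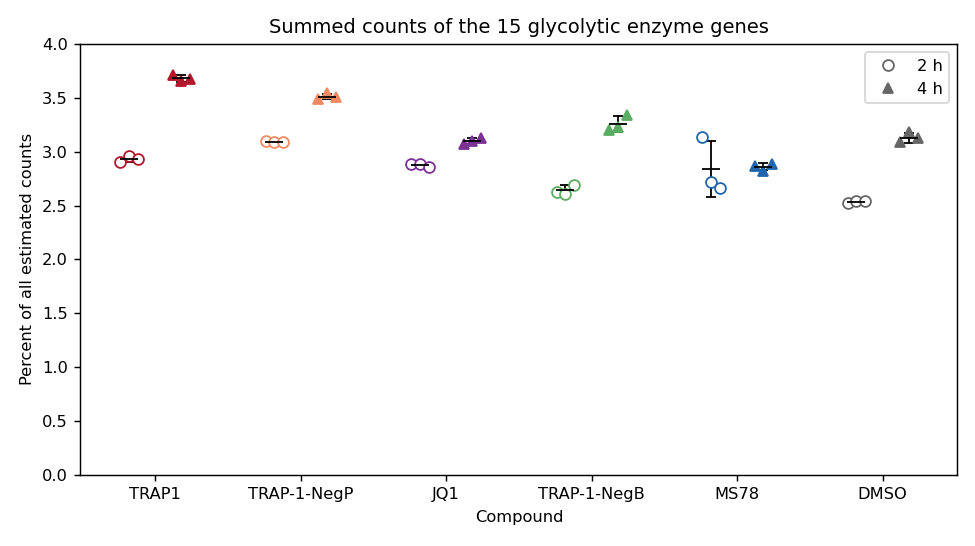
Summed estimated counts of the 15 glycolytic enzymes as a percent of all counts in each library (y axis, from 0), by compound (x axis); circles are 2 h, triangles 4 h, and bars the mean ± SD of 3 libraries. TRAP1 at 4 h is highest at 3.65 to 3.71%, DMSO goes up between 2 and 4 h, and 1 MS78 library at 2 h stands apart at 3.14%.

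The bifunctional kinases PFKFB3 and PFKFB4 make and remove fructose 2,6-bisphosphate, the activator of phosphofructokinase. PFKFB3 had 78.4, 84.4 and 79.3 CPM at 4 h with TRAP1, 63.1, 68.8 and 72.9 CPM with TRAP-1-NegP, and 93.1, 90.3 and 86.2 CPM with JQ1, against 33, 34.1 and 36.8 CPM with DMSO. The 4 groups did not overlap, with JQ1 highest, and the log2 fold changes were 1.22 ± 0.09 (adjusted p = 3.3e-17), 0.98 (2e-13) and 1.37 (3e-19). PFKFB4 had 14.9, 13.1 and 15.4 CPM at 4 h with TRAP1, 4.87, 6.75 and 6.56 CPM with TRAP-1-NegP, and 3.92, 7.05 and 6.93 CPM with JQ1, against 5.48, 4.81 and 4.78 CPM with DMSO. The TRAP1 libraries stood apart, and the other 3 groups overlapped. Its log2 fold change was 1.53 ± 0.26 with TRAP1 (adjusted p = 2.3e-06), 0.27 ± 0.27 with TRAP-1-NegP (0.46) and 0.25 ± 0.27 with JQ1 (0.47). PDK1, the kinase that shuts pyruvate dehydrogenase, had 10.3, 7.27 and 7.14 CPM at 4 h with TRAP1, 6.98, 9.69 and 8.06 CPM with TRAP-1-NegP, and 8.81, 11.5 and 7.23 CPM with JQ1, against 8.83, 7.76 and 7.32 CPM with DMSO. These ranges overlapped, and none of the 3 was called (0.05, 0.05 and 0.21).

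Promoters of 5 members are shown because these genes carry the contrasts above: ANGPTL4, ANKRD37 and ALDOC were higher with all 3 compounds, while PFKFB4 and EGLN3 set TRAP1 apart. Each is a RefSeq window on GRCh38.p14, with 250 bases before and 50 after an annotated start, written 5′ to 3′ on the gene's strand. Capitals mark the core of the HIF binding motif, ACGTG or GCGTG, read on either strand (CACGT or CACGC in the printed strand). The windows are chr19:8363905-8364204 (+) for ANGPTL4, chr4:185396591-185396890 (+) for ANKRD37, chr17:28576846-28577145 (−) for ALDOC, chr3:48556754-48557053 (−) for PFKFB4 and chr14:33951025-33951324 (−) for EGLN3.
ANGPTL4: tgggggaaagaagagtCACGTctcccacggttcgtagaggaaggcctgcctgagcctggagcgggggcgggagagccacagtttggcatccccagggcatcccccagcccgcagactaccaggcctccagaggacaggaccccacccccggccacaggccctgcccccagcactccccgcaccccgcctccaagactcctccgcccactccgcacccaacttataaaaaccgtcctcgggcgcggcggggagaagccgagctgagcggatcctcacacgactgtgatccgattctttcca
ANKRD37: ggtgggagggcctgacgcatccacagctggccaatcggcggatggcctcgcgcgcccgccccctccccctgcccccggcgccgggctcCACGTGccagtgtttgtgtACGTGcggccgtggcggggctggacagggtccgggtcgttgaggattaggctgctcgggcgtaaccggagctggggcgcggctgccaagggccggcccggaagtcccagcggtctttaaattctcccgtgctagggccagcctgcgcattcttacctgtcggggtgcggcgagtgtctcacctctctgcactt
ALDOC: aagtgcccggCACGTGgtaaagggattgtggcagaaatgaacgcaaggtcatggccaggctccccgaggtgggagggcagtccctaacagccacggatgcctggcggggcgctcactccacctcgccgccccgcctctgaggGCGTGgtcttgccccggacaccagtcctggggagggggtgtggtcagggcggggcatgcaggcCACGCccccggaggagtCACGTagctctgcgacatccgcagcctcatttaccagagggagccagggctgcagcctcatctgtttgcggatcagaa
PFKFB4: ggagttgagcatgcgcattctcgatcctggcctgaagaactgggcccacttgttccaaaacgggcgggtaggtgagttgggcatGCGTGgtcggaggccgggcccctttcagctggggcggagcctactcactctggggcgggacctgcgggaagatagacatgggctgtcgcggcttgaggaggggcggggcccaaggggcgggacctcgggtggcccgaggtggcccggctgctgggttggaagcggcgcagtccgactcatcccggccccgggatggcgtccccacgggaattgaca
EGLN3: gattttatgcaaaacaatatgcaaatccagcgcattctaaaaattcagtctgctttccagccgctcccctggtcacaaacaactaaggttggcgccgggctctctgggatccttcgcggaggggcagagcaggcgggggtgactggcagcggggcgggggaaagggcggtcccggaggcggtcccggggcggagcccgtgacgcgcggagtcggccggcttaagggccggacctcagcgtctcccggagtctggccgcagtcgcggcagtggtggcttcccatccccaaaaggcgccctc
The ANKRD37 window held ACGTG 3 times and ALDOC 3 times, with GCGTG 2 times more in ALDOC; the palindrome CACGTG counts once for each strand. ANGPTL4 held 1 ACGTG and PFKFB4 1 GCGTG, and neither motif's letters occurred in the EGLN3 window. Over the whole set, 33 of the 37 members had 55 windows, and either motif occurred in 40 of them (72.7%), against 48.4% of 35116 windows of all genes. ACGTG occurred in 23 of the members' windows (41.8%), against 21.4% of all windows. These are descriptions of letters in a window and not of binding. The members were chosen as hypoxia and glycolysis genes, and some windows of the same gene overlap, so a motif can count more than once.

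Set directly against each other at 4 h, TRAP1 gave higher values than TRAP-1-NegP for 13 members and a lower value for 1 (7.25% and 8.09% of all genes, 15.3% in all). PFKFB4 was higher by 1.26 ± 0.26 (95% interval 0.73 to 1.78; adjusted p = 0.00033), EGLN3 by 0.70 ± 0.14 (0.00026), SLC2A1 by 0.52 ± 0.05 (2.6e-11), VEGFA by 0.50 ± 0.07 (8.8e-07) and NDRG1 by 0.35 (7.6e-05). HK2 was lower, by −0.27 (0.019), a call lost in 2 of 6 fits that left out a library, with length-scaled counts (−0.23; 0.053) and when only these groups were fitted (−0.26; 0.078). Smaller calls were less steady: ADM (0.43; 0.016) was lost in 3 such fits, and PFKFB3 (0.24; 0.049) and PKM (0.14) in 5 each. Of the other enzymes, GAPDH and ENO1 were higher by 0.21, GPI by 0.20 (lost in 1 such fit), LDHA by 0.19 and PGK1 by 0.15. Scaling to library totals ended the calls of GPI (0.108), LDHA (0.098) and PGK1 (0.056), and those of ADM, PFKFB3 and PKM. Without TRAP1 replicate 1, 12 members were higher and 1 lower. Without TRAP-1-NegP replicate 1, 9 were higher and none lower. With scaling to library totals 7 members were higher and 2 lower, and PFKFB4, EGLN3, SLC2A1, VEGFA, NDRG1 and HK2 were still called. The shares of all genes under that scaling are not given.

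For other members no difference between TRAP1 and TRAP-1-NegP was called, and the intervals show how large one could be. The log2 difference at 4 h was 0.09 for ANGPTL4 (95% interval −0.29 to 0.47), 0.09 for ALDOC (−0.17 to 0.34), 0.00 for SLC16A3 (−0.17 to 0.18) and −0.08 for KDM3A (−0.34 to 0.18). At 2 h 1 member was higher and none lower (0.527% and 0.274% of all genes, 0.801% in all): SLC2A1, by 0.20 (adjusted p = 0.044), a call lost in each fit that left out a library. PFKFB4, which differed at 4 h, had 6, 6.35 and 7.16 CPM at 2 h with TRAP1, 4.72, 5.9 and 4.35 CPM with TRAP-1-NegP, and 3.61, 4.45 and 4.35 CPM with DMSO, and was not called in either comparison at that time. Its TRAP1 libraries at 2 h nevertheless lay above all libraries of both other groups. A difference between the times in its TRAP1 effect was not called by the interaction test given below.

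Against JQ1 at 4 h, 16 members were higher and 2 lower with TRAP1 (12.5% and 14.9% of all genes, 27.4% in all), among them 11 enzymes higher and 1 lower. PFKFB4 was higher by 1.28 (adjusted p = 0.00013), SLC2A1 by 0.63 (3e-14), EGLN3 by 0.61 (0.00071) and ENO1 by 0.50 (5.1e-12). GAPDH was higher by 0.46, ALDOC by 0.44 (lost in 2 of 6 fits that left out a library and with scaling to library totals), ALDOA, the main aldolase of muscle and most cells, by 0.42, and PGK1, the first ATP-yielding step, by 0.35. HK2 and HIF1A were lower, by −0.61 (7.3e-08) and −0.47 (5.7e-06). ANGPTL4 (−0.04, 95% interval −0.42 to 0.34), ADM (0.11, −0.15 to 0.36) and SLC16A3 (−0.07, −0.24 to 0.10) were not called. With scaling to library totals the count was 12 higher and 8 lower, for which the shares of all genes are not given. At 2 h none was higher and 1 lower (1.1% and 0.887% of all genes, 1.99% in all), HK2 by −0.29 (0.045), a call lost in each fit that left out a library.

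JQ1 was also set directly against TRAP-1-NegP. At 4 h, 6 members were higher and 10 lower with JQ1 than with TRAP-1-NegP (12.9% and 12.9% of all genes, 25.7% in all). The higher ones were HIF1A (0.41; adjusted p = 0.0001), PFKFB3 (0.40; 0.00047), ERO1L (0.35), HK2 (0.34; 0.0016), P4HA1 (0.33) and VEGFA (0.21; lost in 3 of 6 fits that left out a library and with no count filter). The 10 lower ones were all enzymes, between −0.35 for ALDOC (0.036; lost in 4 of 6 fits that left out a library, with length-scaled counts and with scaling to library totals) and −0.18 for PKM, with ENO1 and PFKL at −0.29 and TPI1 at −0.28. The calls of PFKL and GPI (−0.19) were each lost in 2 of 6 such fits. HK2 was the 1 enzyme called higher. At 2 h, 3 members were higher and 3 lower (5.65% and 7.26% of all genes, 12.9% in all): PFKFB3 (0.51), HIF1A (0.30) and SLC2A1 (0.17) higher, and GAPDH (−0.25), ALDOA (−0.21) and ENO1 (−0.20) lower.

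**Figure D4:**
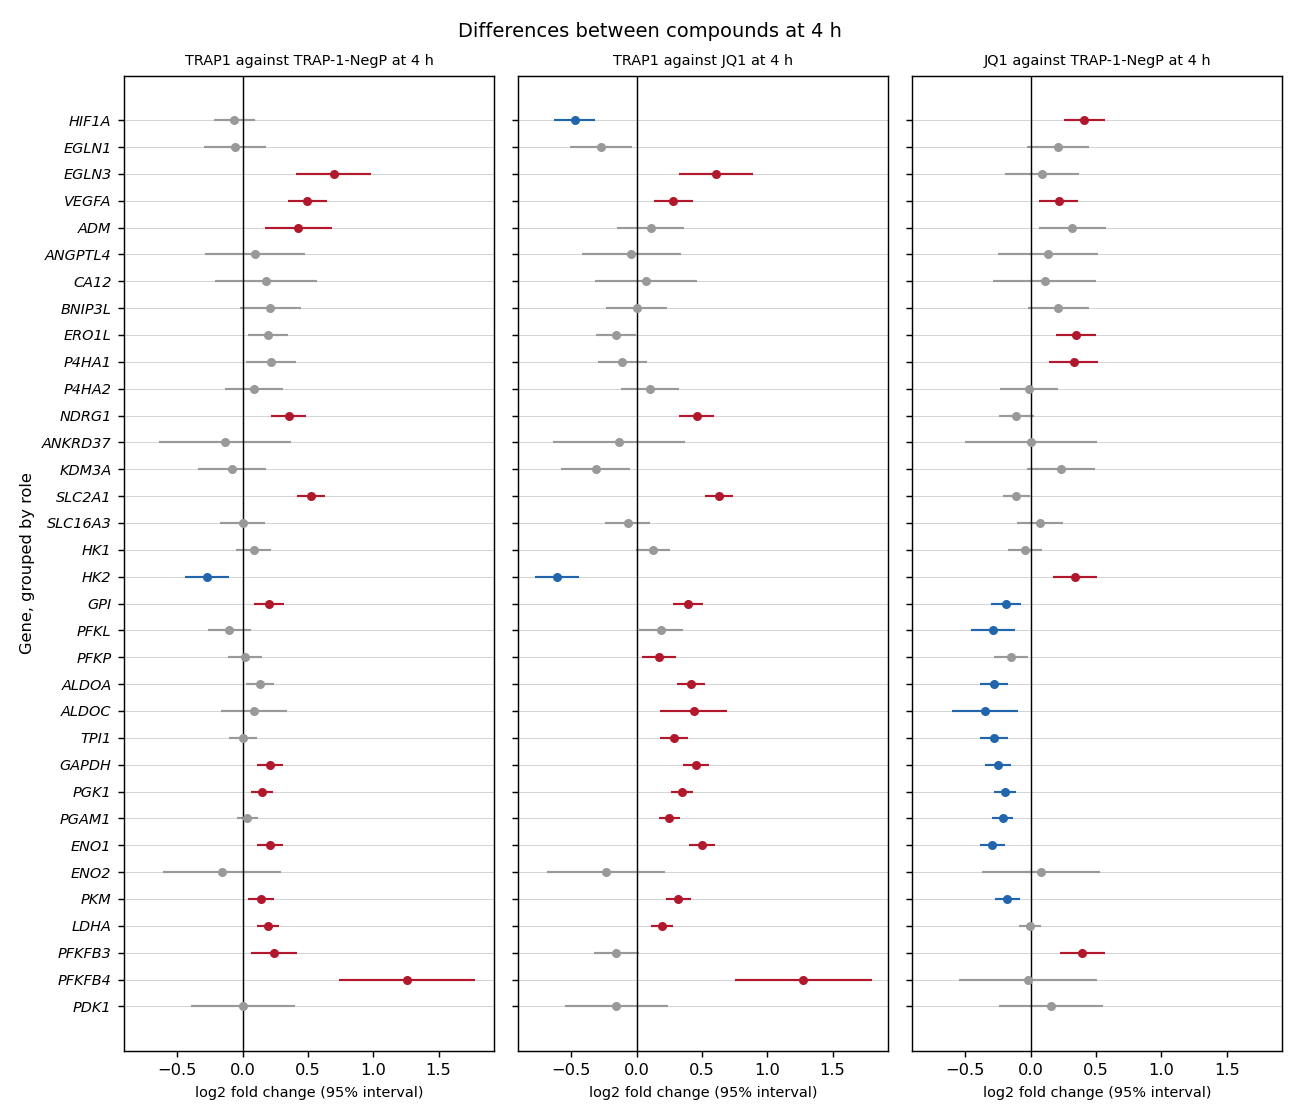
Log2 fold change with its 95% interval (x axes) of 34 members (rows) between compounds at 4 h; red is called higher, blue called lower and grey not called at an adjusted p of 0.05. PFKFB4, EGLN3, SLC2A1 and NDRG1 are red in both TRAP1 panels and HK2 is blue, whereas the enzymes are mostly blue in the panel of JQ1 against TRAP-1-NegP.

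With TRAP-1-NegB few members were called against DMSO. At 2 h, 2 members were higher and 3 lower (5.08% and 5.87% of all genes, 10.9% in all), and at 4 h 1 was higher and 1 lower (0.827% and 0.2% of all genes, 1.03% in all). At 2 h these were NDRG1 (0.23) and ENO1 (0.16) higher and TPI1 (−0.30), PGK1 (−0.18) and PGAM1 (−0.17) lower. The higher one at 4 h was NDRG1 (0.35; adjusted p = 0.0011), with 178, 165 and 169 CPM with TRAP-1-NegB against 125, 137 and 142 CPM with DMSO. The lower one was EGLN3 (−0.57; 0.036, a call lost in 5 of 6 fits that left out a library), with 11.7, 12.6 and 10.6 CPM with TRAP-1-NegB against 19.6, 17.2 and 15.1 CPM with DMSO. Neither pair of groups overlapped. Directly against TRAP-1-NegB, TRAP1 had 20 members higher and none lower at 2 h (11.6% and 9.13% of all genes, 20.7% in all) and 27 higher and 1 lower at 4 h (22% and 24.2%, 46.1% in all). At 2 h these were led by ANGPTL4 (1.85), ADM (1.21), EGLN3 (1.09) and ALDOC (1.02). At 4 h they were led by EGLN3 (1.83), PFKFB4 (1.77), ADM (1.69) and ANGPTL4 (1.58), and HK2 was lower (−0.28). CA9 is among the 27, without a usable fold change.

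With MS78, several enzymes were higher than in DMSO at 2 h and lower at 4 h, while the DMSO level itself went up. As a share of all counts the enzymes together took 2.66 to 3.14% with MS78 at 2 h and 2.82 to 2.88% at 4 h. These MS78 ranges overlapped. With DMSO the share was 2.52 to 2.55% at 2 h and 3.09 to 3.18% at 4 h. At 2 h, 8 members were higher and 6 lower (8.3% and 7.65% of all genes, 15.9% in all), 7 of the higher ones enzymes, such as GPI (0.32), HK1 (0.32), ENO1 (0.29) and PKM (0.27). The library of this group that stood apart had the highest enzyme share, 3.14% against 2.66 and 2.72%. Without it, 10 members were called in place of 14, and 9 of them were among the 14. No member was called when the spread was taken from the MS78 and DMSO libraries at 2 h alone. At 4 h, 3 members were higher and 9 lower (6.23% and 9.05% of all genes, 15.3% in all), and 8 of the lower ones were enzymes. TPI1, which interconverts the triose phosphates, had 1372, 1327 and 1322 CPM with MS78 against 1683, 1752 and 1642 CPM with DMSO, a log2 fold change of −0.34 (adjusted p = 6.7e-06). SLC16A3 had 163, 167 and 177 CPM with MS78 against 191, 228 and 229 CPM with DMSO (−0.35; 0.0037). Neither pair of groups overlapped, and HIF1A (0.27; 0.011), BNIP3L (0.37; 0.023) and ERO1L (0.25; 0.02) were higher. Without DMSO replicate 2 or 3, 5 and 6 members were called at 4 h in place of 12. Without replicate 2, 1 was higher and 4 were lower. Without replicate 3, 6 were lower and none was higher, so none of the 3 higher calls was kept. Directly against MS78, TRAP1 had 16 members higher and none lower at 2 h (12% and 10.6% of all genes, 22.6% in all) and 28 higher and 1 lower at 4 h (23.9% and 25.4%, 49.3% in all), led by ANGPTL4 (1.49) and ADM (1.44) at 2 h and by ANGPTL4 (2.14), PFKFB4 (1.84), EGLN3 (1.59) and ADM (1.57) at 4 h. HK2 was the lower one at 4 h (−0.36). Without the MS78 library that stood apart, 23 members were higher in this comparison at 2 h.

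The set also moved with time in the vehicle. Between 2 and 4 h in DMSO, 10 members went up and 7 down (11.4% and 9.45% of all genes, 20.8% in all). Of the 15 enzymes, 9 were higher at 4 h, led by ENO1 (0.50), GAPDH (0.48), ALDOA (0.39) and PKM (0.39), and SLC16A3 was higher by 0.35. ENO1 had 5055, 5418 and 5266 CPM in DMSO at 4 h, against 3721, 3714 and 3703 CPM at 2 h. The lower ones were PDK1 (−0.75; adjusted p = 0.0032), HIF1A (−0.46; 1.7e-05), ERO1L (−0.42), VEGFA (−0.35), HK2 (−0.33), PFKFB3 (−0.30) and P4HA1 (−0.26). PDK1 had 8.83, 7.76 and 7.32 CPM in DMSO at 4 h, against 12.7, 13.8 and 13.8 CPM at 2 h, with no overlap. ADM (−0.01) and ANGPTL4 (0.00), both higher with TRAP1, TRAP-1-NegP and JQ1, were not called in this comparison. The compound comparisons above use DMSO of the same time.

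**Figure D5:**
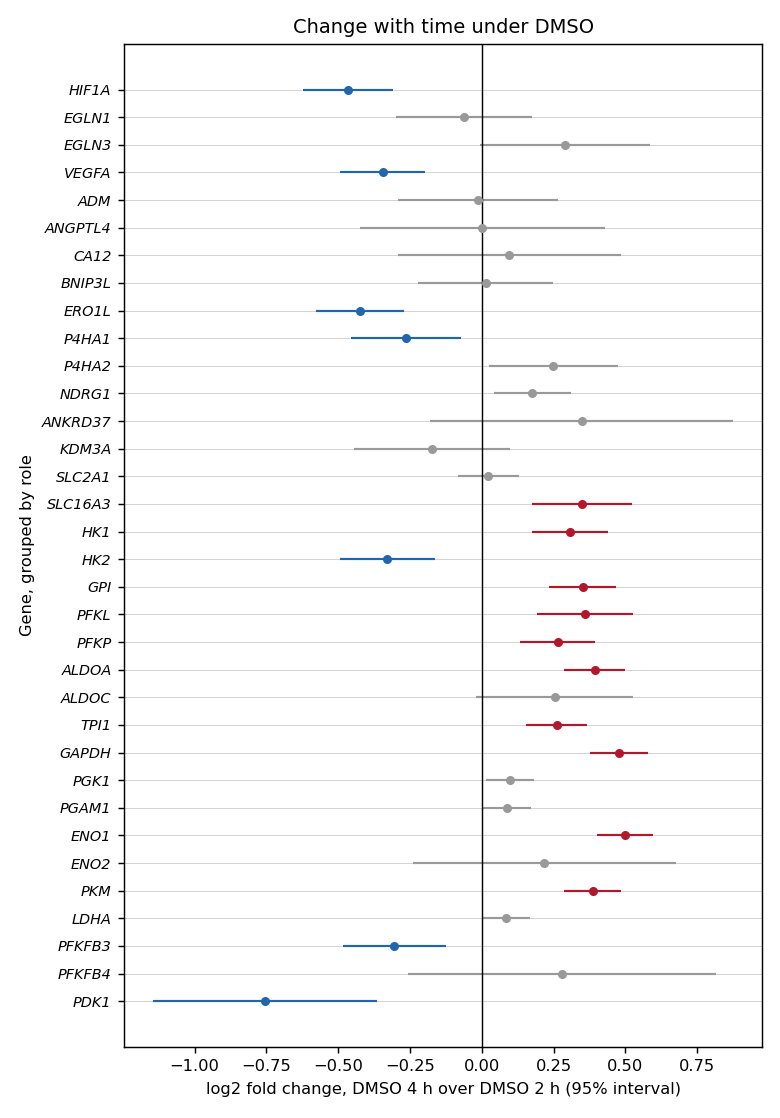
Log2 fold change with its 95% interval (x axis) of 34 members (rows) in DMSO cells at 4 h over 2 h; red is called higher, blue called lower and grey not called at an adjusted p of 0.05. Most enzymes lie to the right, with ENO1 at 0.50, and PDK1 lies furthest to the left at −0.75.

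Whether a compound's effect differed between 2 and 4 h was tested as an interaction. For TRAP1, 10 members had a higher effect at 4 h and none a lower one (10.2% and 11.8% of all genes, 22% in all), led by ALDOC (0.81; adjusted p = 0.00099), PFKFB3 (0.60; 0.00022), VEGFA (0.51; 0.00021) and NDRG1 (0.49; 8.4e-05). For TRAP-1-NegP 9 were higher and 2 lower (11% and 12.2% of all genes, 23.2% in all), among them KDM3A (0.71; 0.0042) and PFKFB3 (0.65; 7.5e-05) higher and ENO1 (−0.34; 0.00021) lower. For JQ1 5 were higher and 5 lower (13.2% and 12.8% of all genes, 26% in all), with HIF1A (0.61; 3e-05) and SLC2A1 (−0.45; 4e-06) at either side. Both JQ1 numbers are close to what these shares give. For TRAP-1-NegB 1, TPI1, was higher (0.37) and none lower (1.87% and 0.607%, 2.48% in all), and for MS78 4 were higher and 10 lower (6.89% and 8.33%, 15.2% in all). PFKFB3 was called for each of TRAP1, TRAP-1-NegP and JQ1, and its level in DMSO was lower at 4 h than at 2 h. All interactions subtract the same DMSO change, in which HIF1A, ERO1L, VEGFA and PDK1 also went down and several enzymes went up. The interactions are thus not independent of each other. A call can come from a change in DMSO, in the compound's libraries or in both.

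A wider list of 77 hypoxia and glycolysis genes outside the set held 71 tested genes. At 4 h, 30 of these were higher and 14 lower with TRAP1 than with DMSO, 22 and 9 with TRAP-1-NegP, and 27 and 14 with JQ1. Over all tested genes the shares were 22.2% higher and 24.5% lower with TRAP1, 18.6% and 18.9% with TRAP-1-NegP, and 24.3% and 24.6% with JQ1. The numbers of lower genes in the list, and both numbers for the HIF machinery with TRAP1, are close to or below what these shares give. By kind, TRAP1 had 15 higher and 8 lower of 34 further HIF targets, 13 and 3 of 26 further genes of glycolysis and pyruvate use, and 2 and 3 of 11 genes of the HIF machinery. DDIT4, an inhibitor of mTORC1 signalling, averaged 170 CPM with TRAP1 against 44.3 CPM with DMSO (log2 fold change 1.94 ± 0.09), and was at 0.57 with TRAP-1-NegP and 0.03 with JQ1. Its averages with TRAP-1-NegB (60.3 CPM) and MS78 (64.3 CPM) were near that with TRAP-1-NegP (65.7 CPM). ARRDC4, an arrestin that lowers glucose uptake, was higher with all 3 (2.02, 1.89 and 2.71). It averaged 8.06 CPM with TRAP-1-NegB and 10.1 CPM with MS78, while its DMSO libraries lay between 2.81 and 8.42 CPM. ZNF395, a transcription factor, was lower with all 3 (−1.30, −0.97 and −1.20), as was INSIG2, a brake on sterol synthesis (−1.02, −0.59 and −0.91). FUT11, a fucosyltransferase, was at −1.06, −0.46 and −0.72, of which the TRAP-1-NegP value was not called. Directly between TRAP1 and TRAP-1-NegP at 4 h, DDIT4 was higher by 1.37 and MXI1, a MYC antagonist, by 1.34, while ARNT, the partner of HIF1A on DNA, was at −0.74, HILPDA, a lipid droplet protein, at −0.45 and ZNF395 at −0.32, all called lower. Against DMSO, HILPDA was not called with TRAP1 (−0.22) or with TRAP-1-NegP (0.23). MXI1 was called higher than DMSO with TRAP1 (0.89) and was not called with TRAP-1-NegP (−0.45).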

How the data were processed

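RNA of 36 libraries in 12 groups of 3 was examined. Per the submitters' processing notes, the authors used nf-core/rnaseq 3.18.0 with Salmon 1.10.3 on hg38, from paired reads of 150 bases. The deposited values used were Salmon's estimated counts per gene, not normalized, with the deposited length-scaled counts as an alternative; the authors' TPM values per gene served only to order levels between genes. Transcript tables were not used.

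Counts were rounded, and genes were filtered with filterByExpr at a minimum count of 10. They were scaled by TMM and fitted over all 12 groups with edgeR 4.0.16 (limma 3.58.1, R 4.3.3): a quasi-likelihood test, with Benjamini-Hochberg adjustment over 14988 genes within each comparison and calls at 0.05. CPM values use TMM-scaled totals. There were 20 comparisons with a compound at 1 time, 5 interactions and 1 of DMSO over time. The common biological coefficient of variation was 0.135. The pipeline was tested on simulated data.

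Members and lists were chosen with earlier results of these data known. Values per library are given for up to 4 members per direction with the largest called log2 fold change and a mean of at least 5 CPM in TRAP1, TRAP-1-NegP and JQ1 against DMSO at 4 h, for a panel of 13 members, and in part for others named after their values were seen. Direct comparisons name up to 4 members per direction by the same rule and some others chosen after their values were seen, and the wider list up to 3 genes per direction, of which 1 gene is not reported here. Alternatives were DESeq2 1.42.0, its size factors, length-scaled counts, other filters, the groups compared alone, a replicate block, each library left out, and the libraries apart left out. Scaling to library totals was added after seeing the data.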

Additional observations from a re-analysis of the deposited data

Results flagged for a closer look

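Compound effects (log2 fold change against DMSO of the same time) that differed between 4 and 2 h by the interaction test are listed here. Values are the effect at 4 h minus that at 2 h. Each reached an adjusted p under 0.05 in edgeR's quasi-likelihood test. The shares of all tested genes called are given with the interaction test above. The change in DMSO between the times enters every value, so the values are not independent between compounds.

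For TRAP1 the differences were all upward: ALDOC 0.81, PFKFB3 0.60, VEGFA 0.51, NDRG1 0.49, ERO1L 0.40, PGK1 0.39, TPI1 0.37, ALDOA 0.25, PGAM1 0.25 and GAPDH 0.20. For TRAP-1-NegP they were upward for KDM3A (0.71), PFKFB3 (0.65), ALDOC (0.64), HIF1A (0.50), EGLN1 (0.46), TPI1 (0.31), PGK1 (0.28), NDRG1 (0.26) and PGAM1 (0.20), and downward for ENO1 (−0.34) and GPI (−0.26). HIF1A and EGLN1 were lower than DMSO at 2 h with TRAP-1-NegP.

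For JQ1 they were upward for HIF1A (0.61), KDM3A (0.61), PFKFB3 (0.54), ERO1L (0.48) and VEGFA (0.40), and downward for SLC2A1 (−0.45), ENO1 (−0.42), GPI (−0.35), HK1 (−0.34) and PFKP (−0.29). The numbers of JQ1 calls are close to what the shares of all tested genes give, 13.2% upward and 12.8% downward. For TRAP-1-NegB TPI1 differed, by 0.37. For MS78 they were upward for PDK1 (1.01), ERO1L (0.47), HIF1A (0.46) and VEGFA (0.33). They were downward for ENO1 (−0.49), GAPDH (−0.48), ALDOA (−0.46), SLC16A3 (−0.46), PKM (−0.45), GPI (−0.42), PFKP (−0.41), HK1 (−0.40), PFKL (−0.34) and TPI1 (−0.24). The MS78 values include the 2 h library that stood apart; without it, 11 of the 14 MS78 differences were still called.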

How the results depend on the processing

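Called members of TRAP1 against DMSO at 4 h numbered between 22 and 30 over all settings, against 27 in the fit reported. The shares of all genes printed with each comparison belong to the fit reported and not to the other settings. Scaling to library totals lowered the count for TRAP-1-NegP at 4 h to 16 (25 reported) and for TRAP1 against TRAP-1-NegP at 4 h to 9 (14). It turned the sign of these 4 h values. With TRAP1, EGLN1 went to −0.18, HIF1A to −0.082, PDK1 to −0.22, PGAM1 to −0.033 and SLC2A1 to −0.063. With TRAP-1-NegP, BNIP3L went to −0.087, EGLN1 to −0.028, ENO1 to −0.014 and PDK1 to −0.12. With JQ1, PGK1 went to −0.019. Of these, HIF1A, PGAM1 and SLC2A1 with TRAP1, ENO1 with TRAP-1-NegP and PGK1 with JQ1 were called higher in the fit reported. None of them was called after this scaling. The fit of only the groups compared called 10 members for JQ1 against TRAP-1-NegP at 2 h (6 reported), 0 for MS78 at 2 h (14), 10 for TRAP-1-NegB at 2 h (5), 4 for TRAP1 against JQ1 at 2 h (1) and 8 for TRAP1 against TRAP-1-NegP at 2 h (1). For the interactions it called 8 for MS78 (14), 17 for TRAP-1-NegP (11) and 16 for TRAP1 (10). TRAP1 against JQ1 at 2 h had 0 with length-scaled counts and with no count filter. DESeq2 called 2 for TRAP1 against TRAP-1-NegP at 2 h and 2 for the TRAP-1-NegB interaction (1 each). Without both libraries that stood apart, MS78 at 2 h had 9. The causes were not tested.

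Leaving out 1 library gave 5 to 14 called members for MS78 at 4 h (12 reported), 3 to 6 for TRAP-1-NegB at 2 h (3 without DMSO replicate 3), 1 to 2 for TRAP-1-NegB at 4 h (2), 9 to 13 for TRAP1 against TRAP-1-NegP at 4 h (9 without TRAP-1-NegP replicate 1) and 0 for TRAP1 against JQ1 and against TRAP-1-NegP at 2 h. Uncalled values near 0 changed sign: HK2 with TRAP-1-NegP at 4 h was 0.005 with DESeq2 and with its size factors, 0.066 with length-scaled counts and between −0.06 and 0.037 over the leave-outs; PDK1 lay between −0.088 and 0.16 with TRAP-1-NegP and between −0.14 and 0.14 with TRAP1 (−0.14 also without both libraries apart). The fitted value of CA9 lay between −0.73 and 1.02 with JQ1 and between −1.57 and 1.27 with TRAP1 (−1.57 without both libraries apart), on at most 15 counts.

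Over all tested genes, same-numbered libraries of a compound and DMSO showed little joint deviation from their group means (correlations of at most 0.064). This does not settle whether the numbers pair the samples, because a weak shared effect, or one in few genes, could give such values. A replicate block called 0 members for TRAP1 against TRAP-1-NegP at 2 h (1 without it) and ended that SLC2A1 call (0.20, adjusted p = 0.057) and the ERO1L call of JQ1 at 2 h (0.19, adjusted p = 0.050).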
